A study of Rattus norvegicus with 12 samples.

Results

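The natriuretic peptide and renin-angiotensin genes examined here were 8 genes: the peptides Nppa and Nppb, the protease Corin, the receptors Npr1 and Npr3, and the angiotensin genes Agt, Ace and Agtr1a. They were taken as every probe set of the array that carries one of these names as its single gene symbol. Of the 8 genes 7 were found, of 14217 genes with a probe set of their own, with 9 of the 31042 probe sets; Corin had no probe set under a single symbol and is not analysed here. Ace and Agtr1a had a pair of probe sets each.

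The study set diabetic against non-diabetic male Sprague-Dawley rats after a myocardial infarct. At 8 weeks of age rats received 1 intraperitoneal injection of streptozotocin, which kills the insulin-producing beta cells, at 65 mg/kg, or citrate buffer, and were kept for 10 weeks without control of blood glucose. The left anterior descending coronary artery was then tied without reperfusion, and myocardium of the left ventricular free wall away from the infarct was taken 1, 7, 14, 28 or 56 days later; sham-operated rats of both conditions completed the set. This gave 12 arrays, 1 per condition and stage, and each array held the pooled RNA of 3 rats. The labelled ages were 18 weeks for sham and day 1, 19 for day 7, 20 for day 14 and 22 for day 28. At day 56 the label gives 26 weeks for the diabetic pool but 22 for the non-diabetic pool, although both protocols state 8 weeks after ligation. The tissue label of both sham arrays mentions an infarct where their protocol describes a sham operation, and how long the sham-operated rats were kept is unknown here. With 1 pool per group, no error below measures the spread between rats. For the diabetic and day differences it is the spread of the diabetic difference over the 6 stages, and for slopes and interactions the scatter left by those fits.

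Values are intensities in arbitrary units, and differences are taken within a probe set, because probe sets differ in binding; sums over markers weight the brighter ones, and ranks within an array only locate a probe set on its scale. Differences are of log2(intensity + 16), fitted with limma; the 18625 probe sets above a brightness filter shared one Benjamini-Hochberg adjustment per comparison, and an adjusted p under 0.05 is a call. Array medians ran from 28.8 to 34.7. The 4 arrays of days 1 and 7 stood apart in 1 quality measure. Their 3' minus 5' difference of the beta-actin control was 0.97 to 0.99 on the log2 scale, against 0.37 to 0.59 on the other 8. Among those 8 the day 28 pair was split, at 0.59 on the non-diabetic and 0.38 on the diabetic array. The diabetic value was near those of day 56, at 0.41 and 0.37, and the sham and day 14 values were 0.48 to 0.51. Ttn on day 28 read 1287 and 5824 (diabetic last), against 5841 and 5855 on day 56 and 1088 to 1595 in sham hearts and on day 14. Diabetic differences on day 28 cannot be told apart from this split. The 8 ventricular muscle markers on the array summed to between 31270 and 40520 on every array. The diabetic sum was lower in 5 of 6 pairs, and 0 of the 8 were called for diabetes. Singly, Myh6 was lower in 6 pairs, Myl3 and Tnni3 in 4, Tnnt2, Irx4 and Mybpc3 in 3, and Myl2 and Ttn in 2. The sum hides wide changes of single markers, such as Ttn, which ran from 1088 to 5855.

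Atrial natriuretic peptide (encoded by Nppa) and B-type natriuretic peptide (Nppb) are hormones that heart muscle releases when its wall is stretched. Corin cuts the precursor of the atrial peptide, Npr1 is the receptor that makes cyclic GMP in response, with natriuresis and vasodilation, and Npr3 takes the peptides out of circulation. The renin-angiotensin system works against them: Agt is the substrate from which angiotensin II is released, with Ace at the last step, and Agtr1a encodes the main receptor for its constriction, growth and fibrosis signals. In the adult ventricle the peptide genes are known to be switched back on under overload and after infarction.

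The genes for both peptides lie next to each other on rat chromosome 5, with 0 annotated genes between them, yet their values differed in these arrays as described below. The 250 bases before each start are therefore shown, 5′ to 3′, from RefSeq on GRCr8. Capitals mark, on either strand, 2 GATA-factor forms (TGATAA and AGATAA), the core bound by Nkx2-5 (AAGTG), the MCAT element bound by TEAD factors (CATTCC) and 2 overlapping TATA forms (TATAAA and ATAAAA).
Nppa, chr5:163711934-163712183, plus strand: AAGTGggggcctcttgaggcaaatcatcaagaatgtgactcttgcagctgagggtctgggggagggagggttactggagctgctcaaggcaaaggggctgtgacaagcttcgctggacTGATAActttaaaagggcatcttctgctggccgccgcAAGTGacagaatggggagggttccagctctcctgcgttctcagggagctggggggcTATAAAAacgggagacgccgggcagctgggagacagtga
Nppb, chr5:163699758-163700007, plus strand: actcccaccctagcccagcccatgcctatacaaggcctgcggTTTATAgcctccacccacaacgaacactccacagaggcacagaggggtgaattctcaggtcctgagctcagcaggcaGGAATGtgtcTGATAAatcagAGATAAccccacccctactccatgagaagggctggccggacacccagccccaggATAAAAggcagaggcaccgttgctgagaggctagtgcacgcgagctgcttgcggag
TGATAA stood 132 bases before the start of Nppa and 121 before that of Nppb. AGATAA, 110 bases before the start, and CATTCC, on the minus strand 131 bases before it, were in the Nppb window only, and AAGTG, at 250 and 95 bases, in the Nppa window only. Of 33469 promoter windows of this length, 7.97% held TGATAA, 10.3% AGATAA, 40.6% AAGTG, 12.1% CATTCC, 12.9% TATAAA and 18.6% ATAAAA. Entries existed for 7 of the 8 genes, and neither GATA form was found in the windows of Corin, Npr1, Npr3, Ace or Agtr1a. A match of letters is a description and says nothing about binding.

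Nppa had the largest fitted difference between diabetic and non-diabetic hearts among the 5 member probe sets tested, but it was not called. In non-diabetic rats its intensity was 2229 in sham hearts, 3498 on day 1, 4773 on day 7, 5916 on day 14, 7134 on day 28 and 3773 on day 56. In diabetic rats it was already 5725 in sham hearts, and then 7476, 6992, 7200, 5985 and 7125 on the same days. The diabetic sham value lay above 4 of the 6 non-diabetic values, and the sham array was the lowest of its 6 in both conditions, a pattern that 2.75% of all tested probe sets showed. The non-diabetic values span a range of 2229 to 7134, while the diabetic values lay between 5725 and 7476.

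**Figure D1:**
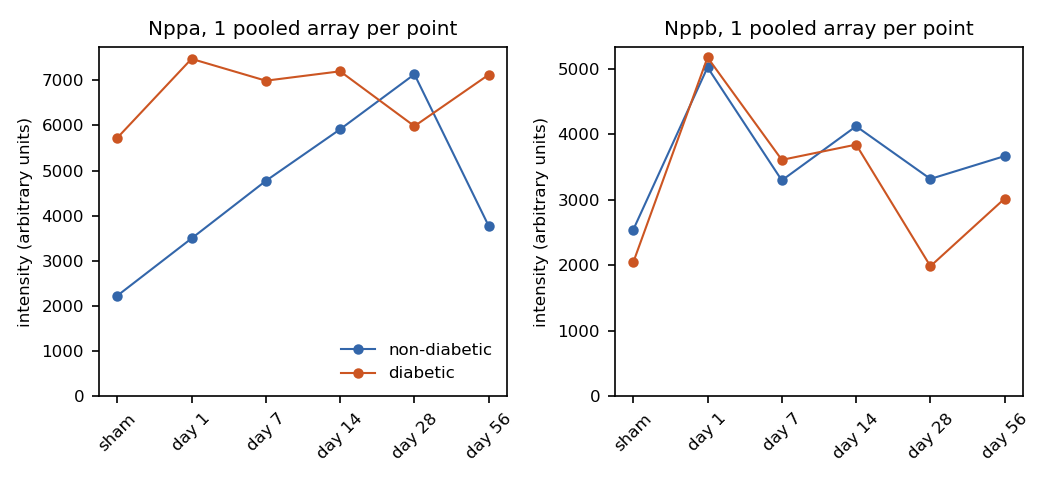
Intensity in arbitrary units of Nppa (left) and Nppb (right) at each stage, 1 pooled array per point, joined within non-diabetic (blue) and diabetic (orange) rats. Diabetic Nppa lies between 5725 and 7476 throughout, while non-diabetic Nppa starts at 2229 and peaks at 7134 on day 28; Nppb is highest on day 1 in both conditions.

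The diabetic array was the higher one for Nppa in 5 of 6 pairs, as it was in at least 5 pairs for 15.2% of all tested probe sets. The log2 difference, diabetic minus non-diabetic, was 1.36 in sham hearts, 1.09 on day 1, 0.55 on day 7, 0.28 on day 14, -0.25 on day 28 and 0.91 on day 56. Only the day 28 pair had the opposite sign. Over the 6 pairs the fitted difference was 0.66 ± 0.18 (SE), or 1.58-fold, with limma's adjusted p at 0.199. Among all probe sets 70, or 0.376%, were called for diabetes, and 0 of the 5 member probe sets that passed the filter were among them. Without the day 28 pair the difference was 0.84 ± 0.14 with an adjusted p of 0.0276 in limma, and 92 probe sets in all were called. Leaving out the only pair of opposite sign raises the difference by construction, so this call is no support for it. No other single pair left out gave a call for Nppa. Because the tissue is a mixture, more cells expressing a gene and more RNA per cell cannot be told apart here.

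The distance of Nppa from sham was wider in non-diabetic than in diabetic rats, a difference that was not called. Against its own sham array non-diabetic Nppa was higher by 0.65, 1.09, 1.40, 1.67 and 0.76 on the log2 scale from day 1 to day 56, with a mean of 1.11. Diabetic Nppa was higher by 0.38, 0.29, 0.33, 0.06 and 0.31, with a mean of 0.28. It lay near the top of its arrays, on day 1 at 7476 against a maximum of 7601. Intensities there can be compressed, and the part of that in the smaller diabetic distance was not tested. The interaction of diabetes with ligation was -0.84 ± 0.43 (SE), with limma's unadjusted p at 0.0769 and its adjusted p at 1. It rests on 1 sham pair, and 0% of the 18625 probe sets were called for it, with 125 at an unadjusted p under 0.05. The interaction of diabetes with log2 of the day was -0.11 ± 0.08 for Nppa, and for that term too 0% were called, with 838 at an unadjusted p under 0.05. Averaged over both conditions, the mean of the 5 days exceeded sham by 0.69 ± 0.24 with limma's adjusted p at 0.319.

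Nppa is also the classic marker of atrial muscle, so atrial marker genes were set beside it. Of 8 listed, 6 were on the array and 5 passed the filter. Their summed intensity was 813.6 to 1512 in non-diabetic and 1318 to 2122 in diabetic arrays, and it was higher in the diabetic array of all 6 pairs. Without Dkk3, left out after the values were seen, the sum was higher in 4 pairs and lower on days 14 (896.5 against 883.6) and 28 (622.2 against 613.3, non-diabetic first). Pair by pair the median log2 difference of the 5 was 0.22 in sham hearts, 0.09 on day 1, 0.53 on day 7, 0.24 on day 14, -0.23 on day 28 and 1.45 on day 56. On day 28 this median and Nppa were both below 0, as were Nppb, Npr1 and the brighter probe sets of Ace and Agtr1a. In sham hearts and on day 1 Nppa differed by 1.36 and 1.09, where the medians were 0.22 and 0.09. These medians cover markers that differed widely: the 5 ran from -1.53 to 0.92 in sham hearts and from -0.59 to 2.67 on day 1.

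The single atrial markers did not move as 1 group. Myl7, the atrial myosin light chain, was 157.2 against 43.9 in diabetic sham hearts, a log2 difference of -1.53, and 96.3 against 697.8 on day 1, a difference of 2.67. Myl4, the atrial essential light chain, differed by 0.22 in sham hearts and by 1.65 and 1.45 on days 14 and 56. Dkk3, a secreted protein abundant in atria, was higher in the diabetic array of all 6 pairs, Gja5 in 4, Stard10 in 2 and Sln in 1. Over the 6 pairs the median fitted diabetic difference of the 5 markers was 0.64, against 0.01 over all probe sets, and 0 of 5 were called. No atrial marker was at 0, and Sln, which did not pass the filter, ran from 3.04 to 46.9. The part of atrial tissue in the Nppa values was not tested.

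**Figure D2:**
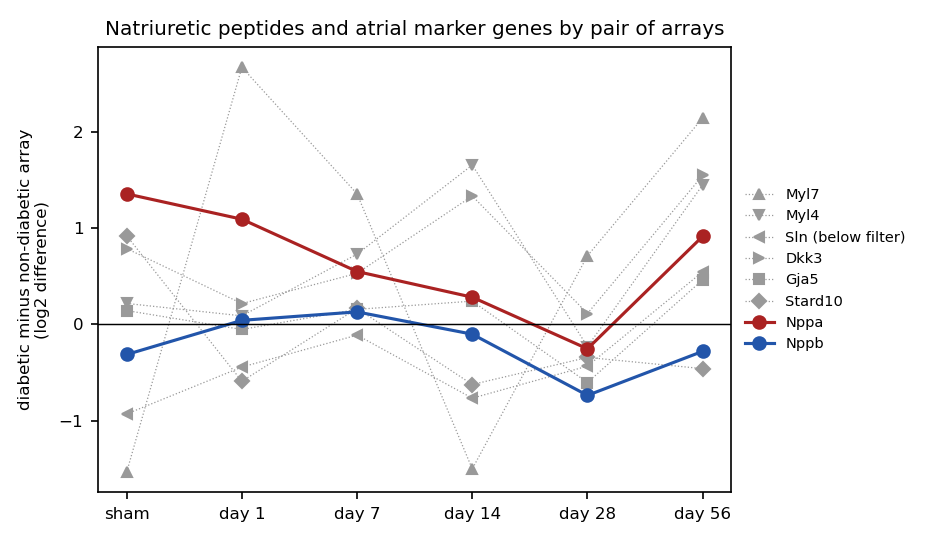
Log2 difference, diabetic minus non-diabetic array, at each stage for Nppa (red), Nppb (blue) and 6 atrial marker genes (grey). Nppa is above 0 in 5 of 6 pairs and Nppb in 2; Myl7 runs from -1.53 in sham hearts to 2.67 on day 1.

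Nppb rose on day 1 and was the only member called for any day. Non-diabetic intensities were 2542 in sham hearts, 5021 on day 1, then 3296, 4122, 3318 and 3667. Diabetic intensities were 2044 in sham hearts, 5172 on day 1, then 3609, 3842, 1986 and 3019. Day 1 was the highest array in both conditions. The non-diabetic sham array was the lowest of its 6, whereas in diabetic rats day 28 lay just under sham. The fitted day 1 difference from sham was 1.16 ± 0.21 (SE), or 2.23-fold, with limma's adjusted p at 0.00998. It was 0.98 in non-diabetic and 1.33 in diabetic rats taken alone. On day 1, 1392 probe sets or 7.47% were called, and Nppb was 1 of the 5 members tested. Both day 1 arrays are among the 4 with the higher actin ratio, whose part in this result was not tested.

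The differences from sham on the later days were smaller, and none was called. The differences were 0.59 ± 0.21 on day 7, 0.80 ± 0.21 on day 14, 0.17 ± 0.21 on day 28 and 0.54 ± 0.21 on day 56, with limma's adjusted p-values of 0.107, 0.402, 0.999 and 0.259. All 5 day differences share the same 2 sham arrays. On day 7, 7.65% of probe sets were called and 0 members. Without the day 28 pair, which is not part of that difference, Nppb on day 7 had an adjusted p of 0.0301 in limma. On days 14, 28 and 56 limma called 0%, while 2172, 675 and 3062 probe sets had an unadjusted p under 0.05. The mean of the 5 days exceeded sham by 0.65 ± 0.16 with an adjusted p of 0.172 in limma, a comparison in which 0.107% of probe sets and 0 members were called. Without the day 28 pair that mean was 0.77 ± 0.13 with limma's adjusted p at 0.00782, and 625 probe sets in all were called in place of 20. Day 28 had the smallest of the 5 differences, so leaving it out raises the mean by construction. Among the 10 ligated arrays the slope of Nppb on log2 of the day was -0.13 ± 0.04 with an adjusted p of 0.0733 in limma, where 9.92% of all probe sets and 0 members were called.

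Between diabetic and non-diabetic arrays the sign of the Nppb difference changed from stage to stage. The diabetic minus non-diabetic log2 difference was -0.31 in sham hearts and 0.04, 0.13, -0.10, -0.74 and -0.28 from day 1 to day 56. The fitted difference was -0.21 ± 0.12 (SE), with limma's adjusted p at 0.571. Thus the 2 neighbouring peptide genes had diabetic differences of opposite sign, neither of them called, and over the 12 arrays their log2 values correlated with r = 0.11, a description across arrays that share tissue and platform. Both were bright: Nppa ranked between 2 and 337 from the top of its array and Nppb between 42 and 373, with array maxima of 7149 to 8892. Intensities near that top can be compressed, and whether they were was not tested.

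**Figure D3:**
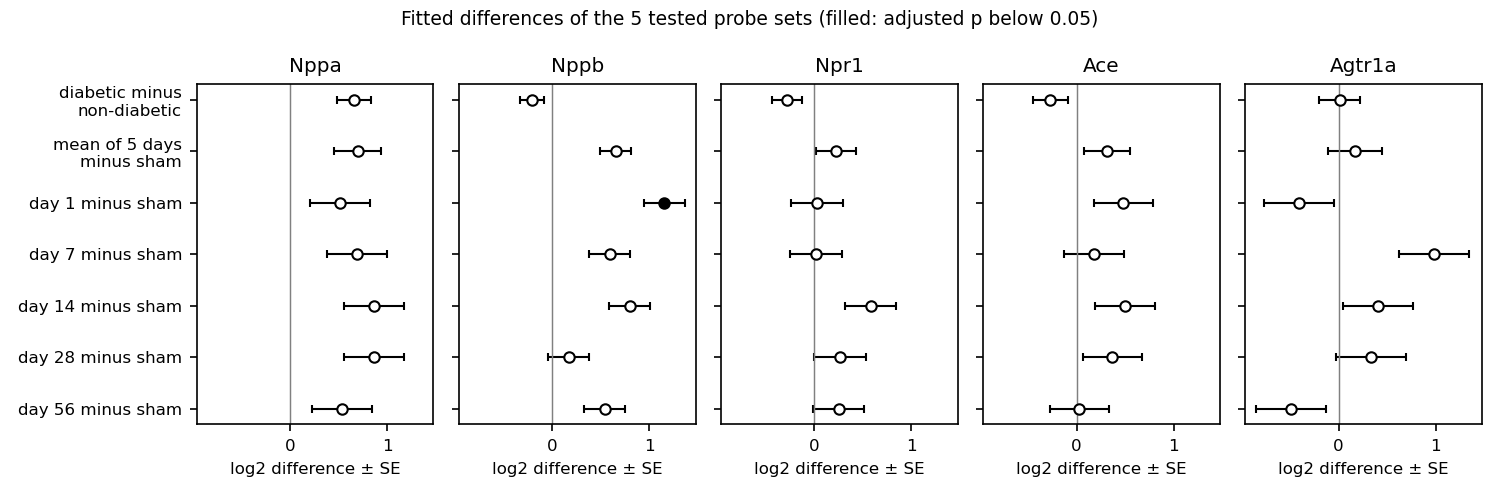
Fitted log2 differences with standard errors for the 5 member probe sets that passed the filter, for diabetic against non-diabetic arrays and for the 5 days, averaged and singly, against sham. The only filled point (adjusted p below 0.05) is Nppb on day 1 at 1.16; Nppa lies at 0.66 for diabetes.

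Of the 2 peptide receptors only Npr1 passed the brightness filter, and it was called in no comparison. Npr1, the cyclic GMP-forming receptor, read 74.9, 76.4, 67.3, 139.7, 102.1 and 70.5 from sham to day 56 in non-diabetic rats. In diabetic rats it read 56.4, 57.7, 64.7, 78.3, 64.2 and 91.4. The diabetic array was lower in 5 of 6 pairs, with day 56 the exception, as were 14.8% of all tested probe sets in at least 5 pairs. The non-diabetic day 14 array stood highest. The fitted diabetic difference was -0.28 ± 0.15 (SE) with limma's adjusted p at 0.554. The summed intensity of 7 endothelial markers was also lower in the diabetic array of all 6 pairs. The diabetic sums were 2360 to 3093, the non-diabetic ones 2769 to 3780. Singly, Pecam1, Tie1 and Emcn were lower in all 6 pairs, Tek in 4, Kdr and Vwf in 3 each and Cldn5 in 2. The median fitted diabetic difference of the 7 was -0.21, and 0 of 7 were called. The part of endothelial content in the Npr1 and Ace values was not tested. Day 14 minus sham was 0.58 ± 0.27 with an adjusted p of 0.430 in limma, and the other day differences of Npr1 lay between 0.02 and 0.26.

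Npr3, the clearance receptor, did not pass the filter. Its intensity was 13.0 in non-diabetic sham hearts and at or below 10.96 on every other array, down to 0.0064 on the non-diabetic day 56 array. From day 7 on the diabetic arrays read 10.2 to 11.0, and the non-diabetic ones 9.66, 5.44, 5.61 and 0.0064. At this brightness no difference was read from them.

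Agt, the angiotensin precursor, did not pass the filter either. It ran from 4.59 to 19.1 in non-diabetic and from 1.50 to 12.5 in diabetic arrays. In both conditions day 1 was the lowest array and day 14 the highest. When all 31042 probe sets were fitted without a filter, Agt on day 1 differed from sham by -0.38 ± 0.14, with limma's adjusted p at 0.102.

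Ace, the enzyme that forms angiotensin II, gave 54.8, 77.7, 47.4, 84.6, 96.0 and 38.7 in non-diabetic rats by the brighter of its probe sets. The diabetic values were 36.1, 60.8, 58.9, 57.4, 38.9 and 54.2. Diabetic Ace was lower in 4 of 6 pairs and higher on days 7 and 56, with the widest gap on day 28, a log2 difference of -1.03. The fitted diabetic difference was -0.27 ± 0.18 (SE) with limma's adjusted p at 0.625, and no day was called, the estimates running from 0.03 on day 56 to 0.50 on day 14. The dimmer probe set, just under the filter, had the same sign in all 6 pairs, with -0.72 on day 28 and 0.82 on day 56, and the log2 values of both correlated with r = 0.85 over 12 arrays.

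**Figure D4:**
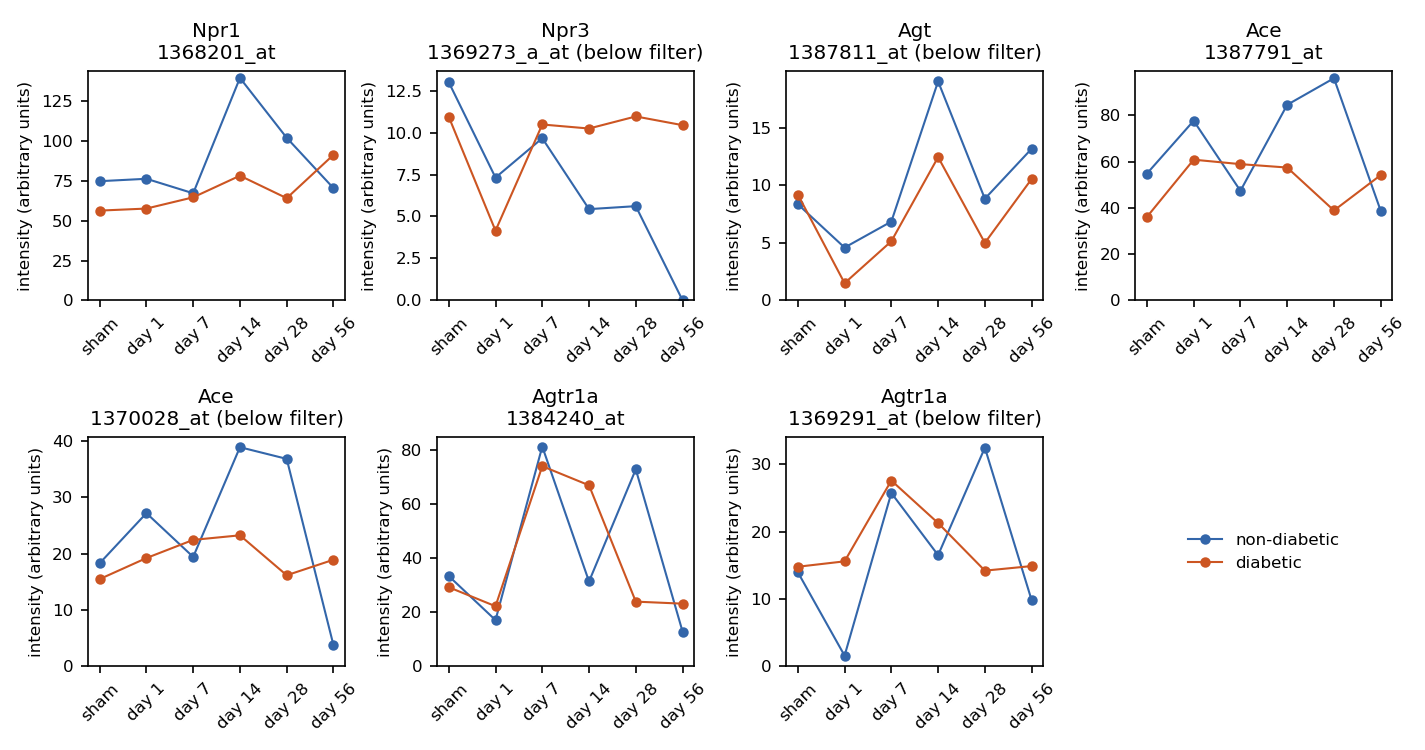
Intensity in arbitrary units at each stage for the 7 other member probe sets, 1 pooled array per point, non-diabetic in blue and diabetic in orange; each panel has its own scale from 0. The brighter Agtr1a probe set peaks on day 7 at 81.5 and 74.2, while Npr3 and Agt stay at or below 19.1.

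Agtr1a, the angiotensin II receptor, varied widely between stages, and no day was called. By its brighter probe set it read 33.5 in non-diabetic sham hearts, 17.2 on day 1, 81.5 on day 7, 31.5 on day 14, 73.0 on day 28 and 12.9 on day 56. The diabetic values were 29.3, 22.3, 74.2, 67.1, 24.0 and 23.2. By this probe set day 7 was the highest array in both conditions, but days 14 and 28 went opposite ways. The log2 difference, diabetic minus non-diabetic, was 0.81 on day 14 and -1.15 on day 28. The fitted diabetic difference was 0.01 ± 0.21 (SE), with limma's adjusted p at 0.990. Day 7 exceeded sham by 0.99 ± 0.36, with an adjusted p of 0.116 in limma. Without the day 28 pair, which is not part of that difference, the same 0.99 had a standard error of 0.24 and an adjusted p of 0.0176 in limma. The dimmer probe set, under the filter, differed by 0.04 in sham hearts and by 0.84, 0.06, 0.20, -0.68 and 0.26 from day 1 to day 56. It was thus higher in the diabetic array of 5 pairs, where the brighter one was higher in 3, with opposite signs in sham hearts and on day 7. In non-diabetic rats the dimmer one was highest on day 28, at 32.4, above 25.7 on day 7. Fitted without a filter, its day 7 difference from sham was 0.49 ± 0.27 with limma's adjusted p at 0.267. The log2 values of the pair correlated with r = 0.85 over 12 arrays.

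Cardiac fibroblasts are known to carry this receptor, so the values of their markers are given beside it. The 7 fibroblast markers, matrix and lineage genes such as Dcn, Lum, Col1a2 and Pdgfra, summed to 9326, 6338, 15920, 7499, 13660 and 5228 from sham to day 56 in non-diabetic rats. In diabetic rats they summed to 7329, 5656, 15240, 13990, 7333 and 8607. The 4 arrays with the highest sums, day 7 of both conditions, non-diabetic day 28 and diabetic day 14, were those with the highest Agtr1a by either probe set. Singly, these 4 arrays were also the highest for Lum, Col1a2 and Dpt, but not for Pdgfra, Tcf21, Dcn or Mfap5. Dcn was highest in non-diabetic sham hearts, at 4078, and read 3007 on diabetic day 14. Tcf21 read 127.2 on non-diabetic day 7, against 164.7 and 186.2 in sham hearts. The 5 markers of activated fibroblasts, such as Postn and Col1a1, reached 7811 and 8357 on day 7 and stood at 1831 against 5082 on day 14 and at 3385 against 519.9 on day 28, diabetic last. The part of fibroblast content in the Agtr1a values was not tested.

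**Figure D5:**
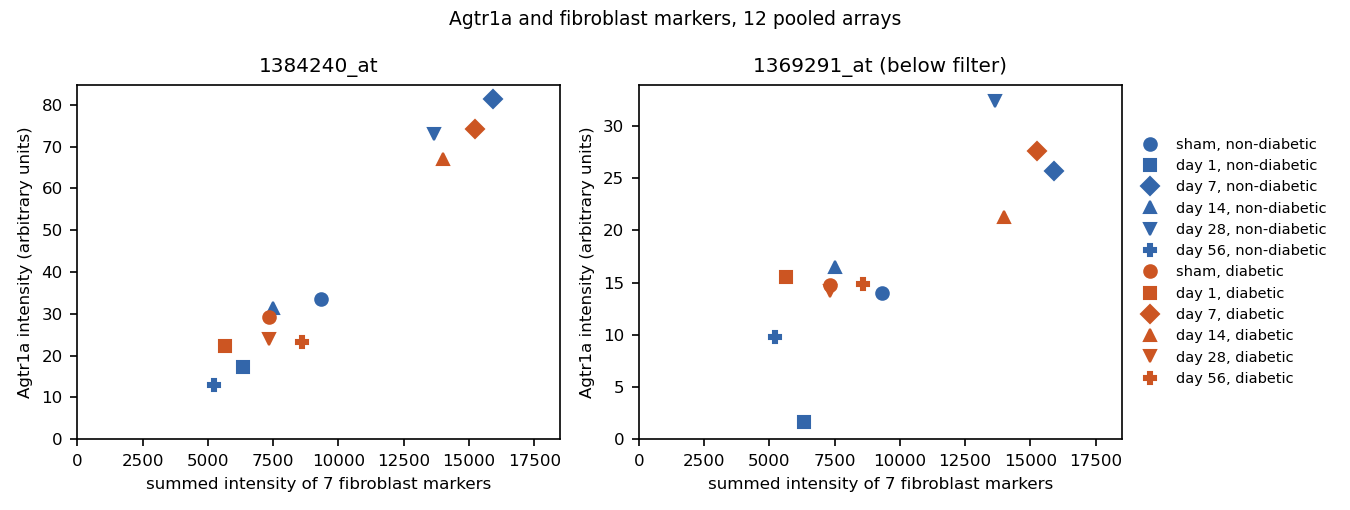
Intensity of both Agtr1a probe sets (vertical axes) against the summed intensity of 7 fibroblast markers (horizontal axes) on the 12 arrays, colour by condition and symbol by stage. The 4 arrays with sums of 13660 to 15920 are the 4 with the highest Agtr1a in both panels.

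For each tested member the 3 genes with the most similar log2 values over the 12 arrays were looked up among 10618 other genes; these correlations are descriptions over arrays that share stages, and carry no test. Agtr1a went with Matn2 (r = 0.97), a matrix protein, Fkbp7 (0.96), a chaperone of the endoplasmic reticulum, and Antxr1 (0.96), a collagen-binding receptor. Nppb went with Fads3 (0.93), Synpo2l (0.88), an actin-binding protein of the sarcomere, and Snd1 (0.88). Nppa had looser companions, Neo1 (0.83), Blk (0.82) and Zfp853 (0.79), with values of 0.91, 0.89 and 0.80 over the 6 non-diabetic arrays and 0.27, 0.15 and -0.39 over the 6 diabetic ones. On the log2 scale Nppa spanned 11.13 to 12.8 in the former and only 12.49 to 12.87 in the latter. A narrow range can by itself lower r. Npr1 went with Ap3d1 (0.94), Pigq (0.93) and Ints1 (0.92), and Ace with Paf1 (0.91), Tnip1 (0.90) and Natd1 (0.89). Npr1 and Ace correlated with each other at r = 0.70.

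The rest of the natriuretic peptide pathway showed little that passed the test. Of 14 further genes listed, 13 were on the array and 8 passed the filter, among them the guanylyl cyclase receptor Npr2, the processing protease Furin and the cyclic nucleotide phosphodiesterase Pde2a. None of the 8 was called for diabetes, for the mean of the 5 days or for day 1 or day 7. The median diabetic difference was -0.04, against 0.01 over all probe sets, with 4 of the 8 above 0. The lowest adjusted p for diabetes among the 8 was that of Pcsk6, at -0.65 ± 0.14 with limma's adjusted p at 0.0946. With the day, 1 of 8 fell, where 9.92% of all probe sets were called in either direction: Osgin2, which belongs to a family of growth inhibitors and is not itself known as a peptide signalling gene, with a slope of -0.15 ± 0.04 per doubling of the day and limma's adjusted p at 0.0400.

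Of 27 further renin-angiotensin-aldosterone genes 21 were on the array and 15 passed the filter. None of the 15 was called for diabetes or for the mean of the 5 days, with medians of -0.10 and -0.04 against 0.01 and 0.02 over all probe sets. On day 1, 1 rose and 2 fell, beside 7.47% of all probe sets called. Prep, a peptidase that can cut angiotensin peptides, was 90.4 and 83.0 in non-diabetic and diabetic sham hearts and 166.0 and 207.9 on day 1, a fitted difference of 0.98 ± 0.26 with limma's adjusted p at 0.0434.

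Both genes that fell on day 1 reached very low intensities. Cma1, a mast cell chymase, went from 25.7 and 34.4 to 0.020 and 3.89, a difference of -1.36 ± 0.36 with limma's adjusted p at 0.0466. The summed intensity of 5 mast cell markers, Cma1 among them, was 116.9 and 173.6 in sham hearts and 45.8 and 75.0 on day 1. Cpa3 went from 47.26 and 76.01 to 6.254 and 23.54, while Tpsab1 stayed level, at 21.85 and 27.41, then 21.93 and 26.62. Mcpt1 and Kit did not pass the filter. The part of mast cell content in the Cma1 value was not tested. Gnaq, the G protein subunit through which the receptor signals, went from 26.2 and 34.4 to 7.23 and 6.09, a difference of -1.03 ± 0.22 with limma's adjusted p at 0.0227. Gnaq was the only gene of the list called on day 7, when 7.65% of all probe sets were, at 4.18 and 7.61, or -1.08 ± 0.22 with limma's adjusted p at 0.0177. For the slope, with 9.92% of all probe sets called, 1 of the 15 rose and 1 fell. Gnaq had a slope of 0.31 ± 0.08, with an adjusted p of 0.0335 in limma, while that of Atp6ap2, an accessory subunit of the vacuolar proton pump, was -0.28 ± 0.08, with an adjusted p of 0.0428. The low Gnaq arrays are the 4 with the higher actin ratio, and the part of that difference was not tested. Of 13 kinin and endothelin genes 5 were tested, and none was called in these comparisons.

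Among 17 factors that regulate the peptide genes 16 were tested, and none was called for diabetes or for the mean of the 5 days. Their median diabetic difference was 0.02, against 0.01 over all probe sets. On day 1, 3 of the 16 rose and 1 fell, beside 7.47% of all probe sets called. Rcan1, a target and regulator of calcineurin, rose from 1545 and 797.8 to 2680 and 2536 (non-diabetic first), a difference of 1.22 ± 0.29 with limma's adjusted p at 0.0315. Myocd, the cofactor of serum response factor, rose by 1.19 ± 0.28 with limma's adjusted p at 0.0287, and Tbx5, a T-box factor active on Nppa, by 1.14 ± 0.30 with limma's adjusted p at 0.0446. Tbx5 was highest, at 165.7 to 226.0, on the 4 arrays with the higher actin ratio and at or below 145.4 on the others, and both day 1 arrays were the highest for Rcan1 and among the 3 highest for Myocd. The part of that ratio in these values was not tested.

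Rest, a repressor of the fetal heart genes that include both peptides, was the lowered factor. It read 26.3 and 42.4 in sham hearts and 1.61 and 0.0025 on day 1, and the fitted difference was -1.57 ± 0.25 with limma's adjusted p at 0.00526. On day 7, when 1 of the 16 rose and 1 fell beside 7.65% of all probe sets called, it read 3.02 and 2.48, a difference of -1.41 ± 0.25 with limma's adjusted p at 0.00901, and its slope with the day was 0.40 ± 0.06, with an adjusted p of 0.00990. For the slope 1 of the 16 rose and 1 fell, beside 9.92% of all probe sets called. Myocd was called on day 7 too, at 1.08 ± 0.28 with limma's adjusted p at 0.0389, and Tbx5 had a slope of -0.23 ± 0.06 with limma's adjusted p at 0.0369. Tested factors of the families tied to the motifs marked above were not called on day 1. Gata4, Gata6 and Nkx2-5 differed from sham by -0.01 ± 0.24, -0.04 ± 0.35 and -0.23 ± 0.29. Tead1, a TEAD factor, differed by 0.56 ± 0.26 with limma's adjusted p at 0.205. Like Gnaq, Rest was low on all 4 arrays with the higher actin ratio and on no other, and the part of that difference was not tested.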

How the data were processed

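Each array was hybridised with biotin-labelled RNA pooled from 3 rats, per the labels. The authors deposited 1 linear intensity per probe set, made with Affymetrix Expression Console and PLIER per the submitters' processing notes; background correction and scaling: not given in the sources used here. Of 31099 probe sets 57 controls were left out. Genes came from the platform annotation, only where it gives 1 symbol (20826 of 31042 probe sets; 436 have several and 9780 are not listed). Probe sets with a mean log2(intensity + 16) above the 40th percentile were kept (18625); of 9 member probe sets 5 passed. Dim values understate change.

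limma 3.58.1 in R 4.3.3 fitted stage as a factor plus diabetes to all 12 arrays (5 residual degrees of freedom, variance trend); slopes and the interaction with the day used the 10 ligated arrays. The code was tested on simulated data with 200 changed probe sets among 18625. A log2 change of 1 was called in 70.5% of the 200 for diabetes, 38.5% for the averaged days and 0% for day 1. At a change of 2 these were 96.5%, 91.5% and 84.5%. On days 1 and 7 the real data had 7.47% and 7.65% called, so the adjustment was less strict there than in the simulation. Prep on day 1 was called at 0.98, and the simulated 0% is not the rate of these data. Even so, a missing call for a day difference of 1 or less is no sign that nothing changed. The number of arrays limits precision. Alternatives covered the offset, scaling, filter, variance model and arrays left out. All members are named whatever their values. Pathway genes are named where called for diabetes, the mean of the 5 days or the slope, and at most 4 per list and day. Pcsk6, Gata4, Gata6, Nkx2-5 and Tead1 were added after their values were seen. For likeness the 3 genes with the highest r are given. Members and lists were chosen with earlier results of these data known.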

Additional observations from a re-analysis of the deposited data

How the results depend on the processing

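Over 16 alternative settings 710 values of the members were recomputed. Of these 700 kept their side of the threshold, 10 were newly called, 0 lost a call and 0 reversed one; 29 changed sign, none past the test. Nppb on day 1 was called in all 13 settings that could give it, at 1.14 to 1.19 with limma's adjusted p from 0.00125 to 0.0237. The calls that changed came from leaving arrays out; fewer arrays and another residual spread come with that, and the cause was not tested. Leaving out 1 pair at a time, the diabetic difference of Nppa ran from 0.52 to 0.84 and the excess of Nppb over sham, as the mean of the days, from 0.53 to 0.77; the number of member probe sets called was 0 to 1 for diabetes and likewise 0 to 1 for the averaged days. The day 28 pair was the one whose absence gave each call. For the diabetic difference of Nppa it had the opposite sign, and for Nppb the smallest difference from sham. These calls are therefore no support for either difference. Without the day 14 and day 28 pairs together, the diabetic difference of Nppa was 0.98 with limma's adjusted p at 0.0175 (over all alternatives 0.0175 to 0.515), 1 member probe set was called for diabetes, and 2 were called for the days averaged: Nppa at 0.58 and Nppb at 0.76. From non-diabetic arrays alone the mean excess of Nppa was 1.11 and from diabetic arrays alone 0.28. Without the day 28 pair or both pairs, day 7 calls were also made for Nppb and Agtr1a, and without both for Nppa. The stage in the fit pairs the conditions, so no further block was fitted. In the actin measure, however, the day 28 pair was the least alike, at 0.59 (non-diabetic) and 0.38 (diabetic). On day 56 the values were 0.41 and 0.37. The part of that split in the day 28 values, and in the calls made without that pair, was not tested. Npr3, Agt and the dimmer probe sets of Ace and Agtr1a did not pass the filter, so their signal over background limits what can be said of them.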
